A study of Caenorhabditis elegans with 64 samples.

Results

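Small RNAs matching 387 genes of *Caenorhabditis elegans* declined over 10 generations of wild-type animals at 25°C. The genes were chosen from small RNA levels in wild-type (N2) libraries alone, in reads per 1000000 reads counted on genes (RPM): a mean of at least 20 RPM in each of the 20°C and the first 25°C generation, and a mean at generation 10 at least 3-fold lower than at generation 1. Of the 31106 genes in the tables, 5546 had at least 20 RPM at both points, and 387 of these (6.98%) met the rule. They are called declining genes here. Among the same 5546 genes, 102 were at least 3-fold higher at generation 10. Libraries came from *simr-1(cmp36)* mutants and from wild-type, each kept at 20°C, or moved to 25°C for 1, 2, 7 or 10 generations, and all were made from synchronized whole day 1 adults, with 2 small RNA and 3 mRNA libraries per group. A further 14 strains had 1 small RNA library each at 20°C: *mut-16(pk710)*, *rde-8(tm2252)*, *nyn-2(tm4844); nyn-1(tm5004)*, *wago-1(tm1414)*, *rsd-2(pk3307)*, *simr-1(cmp36)*, *simr-1(cmp36); hpo-40(cmp46)*, *hpo-40(cmp46)*, *math-33(ok2974)*, *hgo-1(tm4989)*, *F37C4.5(ok3454)*, *C33G3.6(cmp44)*, *Y57G11C.3(cmp47)* and wild-type. Whether replicate libraries came from separate cultures is not given in the sources used here, so p-values measure the spread between libraries, which may be technical.

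Small RNAs on *C. elegans* genes are largely 22G-siRNAs, which RNA-dependent RNA polymerases copy antisense from target transcripts. Worm-specific Argonautes (WAGOs, such as WAGO-1) bind a class of them and silence its targets, and silencing can pass through the germline to progeny. Production of this class needs the *mutator* complex, which the scaffold MUT-16 assembles and which includes the endonuclease RDE-8 and its relatives NYN-1 and NYN-2. The siRNAs of another Argonaute do not generally silence their targets, and the counts here do not separate the classes. SIMR-1 is a Tudor domain protein found with MUT-16, and RSD-2 acts in RNA interference at low doses of trigger. In whole animals, fewer germ cells and less RNA per cell cannot be told apart.

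Several groups stood apart before any declining gene was considered. Small RNA libraries held 2835252 to 12893224 reads on genes over generations and 2392511 to 50329478 in the single libraries, and mRNA libraries held 8055126 to 38633453. The mRNA of *simr-1* itself was 6.23 to 29.1 CPM (counts per 1000000 of a library total scaled by TMM, edgeR's trimmed mean of M values) in *simr-1* libraries and 45.3 to 230.1 CPM in wild-type libraries. The summed mRNA of 8 oocyte genes, all of them detected, was 1641 to 2000 CPM in wild-type generation 1, 1520 to 2608 CPM in wild-type generation 2 and 2633 to 3411 CPM in *simr-1* generation 2, against 6926 to 10006 CPM in the other 7 groups. The share of genome-mapped small RNA reads that fell on genes was also low in those groups, at 41.1% to 43.5% in wild-type generations 1 and 2 and 45.3% to 50.9% in *simr-1* generation 2. It was 58.7% to 69.4% in the other 7 groups and 53.6% to 68.6% in the single libraries. Generation 1 is part of the rule, and the part of these differences in the decline was not tested; values against 20°C are therefore given beside those against generation 1.

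The sequences of 3 declining genes are shown because 1 leads in abundance and the others have copies that share their small RNAs. The first 100 bases of each annotated span are printed in the orientation of the gene. The first 22 bases are in capitals to show the length of a 22G-siRNA, and mark no observed small RNA. The lincRNA *linc-22* (X:9069138-9069237, plus strand) was the most abundant declining gene, and F07B7.1 (V:8872277-8872376, plus strand; a CCHC-type domain protein) and AC8.7 (X:230433-230532, plus strand) have perfect copies. Sequences are from the WBcel235 assembly in RefSeq, which has the coordinates of the tables.
linc-22: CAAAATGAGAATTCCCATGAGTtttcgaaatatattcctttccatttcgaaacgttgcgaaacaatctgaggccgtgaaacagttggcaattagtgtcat
F07B7.1: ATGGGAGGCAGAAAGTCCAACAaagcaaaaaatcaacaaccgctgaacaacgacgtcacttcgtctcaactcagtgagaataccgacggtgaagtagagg
AC8.7: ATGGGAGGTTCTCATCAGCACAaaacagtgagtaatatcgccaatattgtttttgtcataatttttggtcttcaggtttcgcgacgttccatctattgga

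The whole 1259-base span of F07B7.1 (V:8872277-8873535) is repeated without a mismatch at W09B7.1 (V:8830183-8831441), and the 931-base span of AC8.7 (X:230433-231363) at AC8.12 (X:239849-240779). In all, 19 declining genes formed 11 pairs of at least 99% identity, 8 pairs of them with no mismatch, among them 3 elements on chromosome II (WBGene00022692, WBGene00021194 and WBGene00019136) of 4874 bases each. A small RNA from such a pair was placed on 1 copy by the aligner, so the copies' values are shared: F07B7.1 averaged 258.4 RPM at wild-type generation 10, against 523.4 RPM at 20°C, and W09B7.1 averaged 245.2 RPM at generation 10, against 516.2 RPM at 20°C. At least 50% of 22-base windows occurred elsewhere in the genome for 79 declining genes, and calls without these 79 genes are given below.

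The values that chose the genes are given as a description. The declining genes took 12.3% and 12.2% of small RNA reads on genes in the 2 wild-type libraries at 20°C, 18.4% and 18.5% at generation 1, 16% and 16.2% at generation 2, 7.02% and 6.91% at generation 7, then 3.86% and 3.91% at generation 10. The median declining gene had 87.1 RPM at 20°C, 123.7 at generation 1 and 20.3 at generation 10, while the median of the other 5159 genes was 79.6, 54.9 and 68.6 RPM. By the mean of their 2 libraries, 225 declining genes were highest at generation 1, 102 at 20°C and 60 at generation 2, and 354 were lowest at generation 10. At generation 10, 126 declining genes had under 10 RPM.

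**Figure D1:**
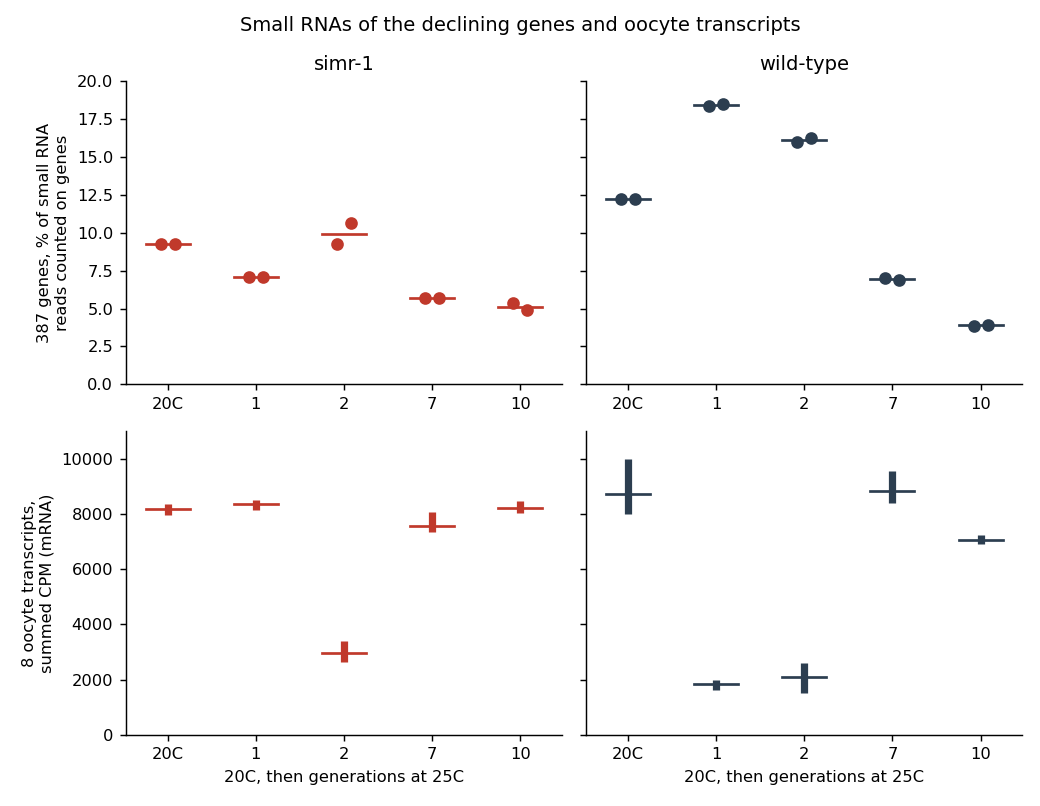
Share of small RNA reads on genes taken by the 387 declining genes (top, percent) and summed mRNA of 8 oocyte genes (bottom, CPM) in *simr-1* and wild-type animals, at 20°C and by generation at 25°C. Points are libraries and short bars group means in the top row, and lines in the bottom row run from the lowest to the highest of 3 libraries with a mark at the mean; the wild-type share is 3.86% and 3.91% at generation 10, against 18.4% and 18.5% at generation 1, and oocyte mRNA is low in wild-type generations 1 and 2 and in *simr-1* generation 2.

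Against 20°C, where oocyte mRNA was high, 370 of the 387 genes (95.6%) were lower at wild-type generation 10, against 72.2% of the other 5159 genes, 306 (79.1%) by at least 2-fold, against 8.0%, and 253 (65.4%) by at least 3-fold, against 1.6%. The rule used these libraries, so the counts are a description. At generation 1, 276 genes were above their 20°C level, 110 of them by at least 2-fold. The median log2 change from 20°C to generation 1 was 0.47, against -0.58 for the other 5159 genes, also as a description. With reads scaled to all genome-mapped reads in place of reads on genes, 188 of the 387 genes met the rule and no other gene did. Just inside the limit, generation 10 was 0.333 of generation 1 for *col-157* (102.1 against 307.1 RPM) and 0.332 for C01A2.1 (89.0 against 267.8 RPM). Just outside stood ZK250.14 (64.7 against 194.2 RPM) and Y51H7C.15 (10.5 against 31.5 RPM).

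The most abundant declining genes differed in their course. *linc-22* had 8285 and 8156 RPM in the wild-type libraries at 20°C, 6585 and 6640 at generation 1, 6500.5 and 6512 at generation 2, 1334 and 1300 at generation 7, then 675 and 704 at generation 10. It was at 6500.5 RPM or more through generation 2 and was low from generation 7. F15D4.5 (II:13245348-13247774), annotated with a CCHC-type domain, had 3201 and 3258 RPM at 20°C, 7254 and 7333 at generation 1, 5503 and 5785 at generation 2, 3122 and 3090 at generation 7, then 1733 and 1750 at generation 10. The pseudogene Y17D7C.3 (V:18720589-18723771) had 2056 and 2206 RPM at 20°C, 8439 and 8176 at generation 1, 9223 and 7581 at generation 2, 1807 and 2079 at generation 7, then 1076 and 1116 at generation 10. These 2 genes peaked after the shift to 25°C and at generation 7 were back near their 20°C level. *bath-45* (II:13123038-13124789), which encodes a BTB and MATH domain protein, had 3895 and 3785 RPM at 20°C, 4861 and 4684 at generation 1, 3906 and 3966 at generation 2, 2241 and 2081 at generation 7, then 1265 and 1269 at generation 10. The other 6 of the 10 most abundant genes were *fkb-8*, a peptidylprolyl isomerase gene, F37H8.2, *bath-20*, F37D6.3, F39E9.10 and F59H6.14.

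**Figure D2:**
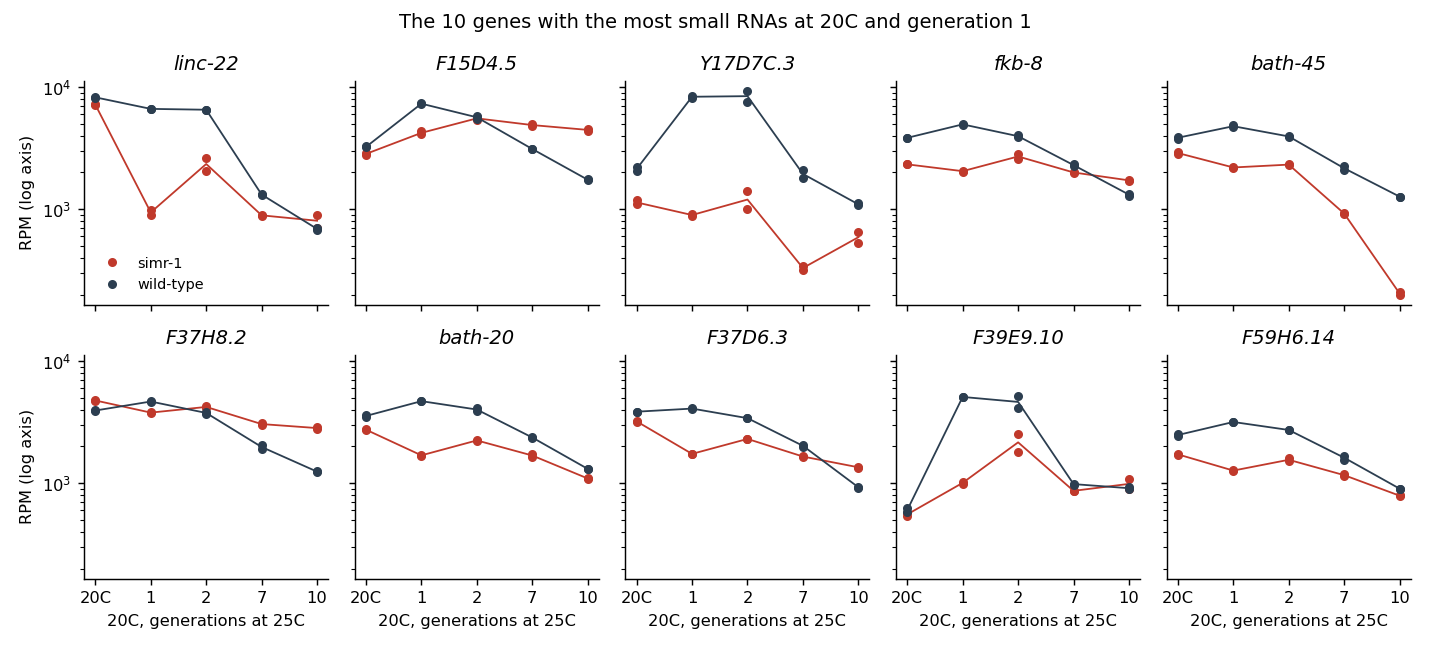
Small RNA level (RPM, log axis) of the 10 declining genes with the most small RNAs at 20°C and generation 1, in *simr-1* and wild-type animals over generations. Points are libraries and lines join group means; 9 of the 10 wild-type lines are lowest at generation 10 (F39E9.10 is lowest at 20°C), while F15D4.5 in *simr-1* is lowest at 20°C.

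Declining genes were often not ordinary protein coding genes. By annotated biotype, 260 (67.2%) were protein coding, against 92.8% of the other 5159 genes, 76 (19.6%) were pseudogenes, against 3.5%, 23 (5.9%) were ncRNAs, against 1.3%, and 16 (4.1%) were lincRNAs, against 0.2%. The other 5159 genes held 12 lincRNAs. Chromosome X held 64 (16.5%), against 4.3% of the other genes. Families included 14 F-box genes (3.6%, against 0.7% of the other genes), which encode substrate adaptors of ubiquitin ligases, 7 BATH and MATH genes (1.8%, against 0.5%) and 2 C-type lectins, with 2 more among the other genes. Ribosomal protein, histone, vitellogenin, heat shock and small RNA pathway genes had 0 members and made up at most 0.8% of the other genes each, and major sperm protein genes were in neither group. They were shorter, with a median of 965 exon bases against 1587, and similar in GC content, with a median of 41.6% against 41.7%. Another declining gene lay within 10 kb of 160 (41.3%), against 8.3% of the other genes, and repeated sequence was more common, as 79 (20.4%) had at least 50% of windows elsewhere, against 5.8%. These shares are descriptions with no test.

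Generations 2 and 7 were not used by the rule. In wild-type, generation 7 was called lower than generation 2 for 219 of 387 genes (56.6%), where 7.73% of 14424 genes tested were called lower and 7.63% higher (edgeR quasi-likelihood, Benjamini-Hochberg adjusted p at most 0.05, at least 2-fold and at least 10 RPM in a group). None was called higher, 0 were higher at an unadjusted p of 0.05, and DESeq2 called 0 higher. The median log2 change was -1.13, against -0.08 over all genes tested, and 180 of the 308 genes without repeated sequence were called lower. In mRNA, all 8 oocyte genes (median log2 change 2.08) and all 3 germline genes (1.32) were called higher at generation 7 than at generation 2, and their part in the small RNA difference was not tested. Against 20°C, where oocyte mRNA was 8016 to 10006 CPM and at generation 7 was 8408 to 9562 CPM, 194 declining genes (50.1%) had at least 2-fold fewer small RNAs at generation 7, against 2.8% of the other 5159 genes, with a median log2 change of -0.99, against -0.04. Generation 7 lay between generations 2 and 10 for 363 genes, and for 291 the means were lower at each step from generation 1 to 2, 7 and 10. Generation 10, and for the 291 also generation 1, chose the genes, so these counts are a description. Scaled to genome-mapped reads, 102 were called lower, with the median of all genes at 0.54.

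The lincRNAs fell together and steeply. All 16 were called lower at generation 7 than at generation 2 in wild-type, with a median log2 change of -2.27, as were 50 of 76 pseudogenes (-1.26), 13 of 23 ncRNAs (-1.31), 138 of 260 protein coding genes (-1.10), 7 of 14 F-box genes (-1.11), 2 of 7 BATH and MATH genes (-0.90) and both C-type lectins (-1.90). *linc-22* fell by 2.34 on the log2 scale (SE 0.057, adjusted p = 2.06e-10). *linc-24* (III:1370495-1371568) had 22 and 17 RPM at generation 7, against 120.9 and 195.8 RPM at generation 2, a log2 change of -3.08 (SE 0.215, adjusted p = 2.95e-07). The pseudogene Y43F8B.8 (V:19483637-19483895) had 12 and 9.32 RPM at generation 7, against 129.7 and 98.4 RPM at generation 2, the largest fall among genes called (-3.45, SE 0.161, adjusted p = 1.43e-08). *arrd-15* (III:8930036-8936682), an arrestin domain gene, had 9.55 and 11.2 RPM at generation 7, against 80.0 and 101.0 RPM at generation 2 (-3.16, SE 0.162, adjusted p = 2.84e-08). In both genes the groups were far apart, and by generation 10 *arrd-15* had 0.925 and 0.818 RPM in wild-type, against 182.5 and 183.2 RPM at 20°C. The other genes with the largest falls were Y43F8B.29, T08B6.2, F22B7.9, H04D03.4 and the F-box gene *fbxa-52* (-3.23 to -2.94).

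**Figure D3:**
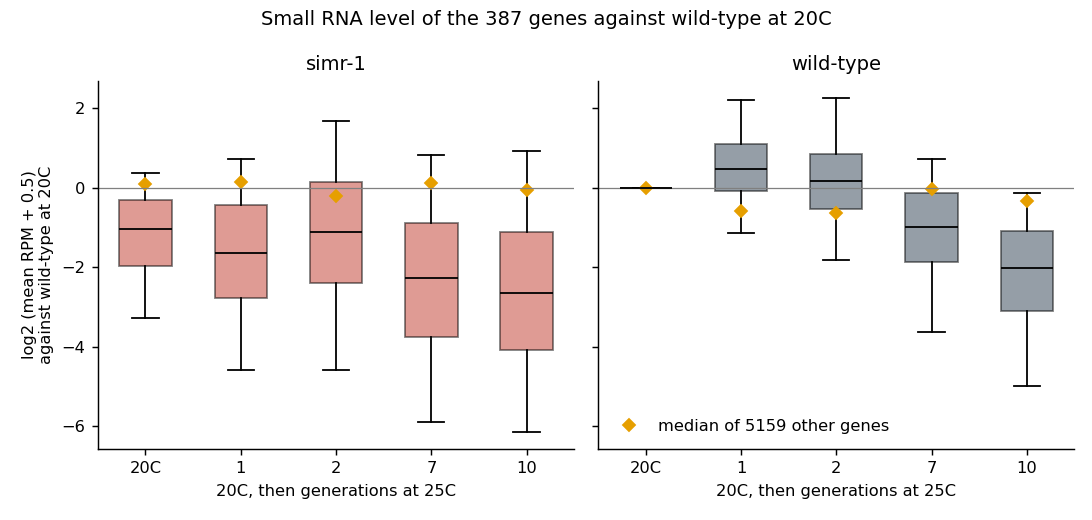
Small RNA level relative to wild-type at 20°C (log2 of RPM + 0.5) in *simr-1* and wild-type animals for the 387 declining genes and the other 5159 genes with at least 20 RPM. Boxes span the middle 50% of declining genes with a line at their median, and diamonds are medians of the other 5159 genes. In wild-type the declining genes' median is -2.04 at generation 10, against 0.47 at generation 1.

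In *simr-1* mutants the declining genes took 9.24% and 9.23% of reads at 20°C, 7.07% and 7.1% at generation 1, 9.25% and 10.6% at generation 2, 5.69% and 5.72% at generation 7, then 5.35% and 4.88% at generation 10. By group means, 197 genes (50.9%) at 20°C were at least 2-fold lower in *simr-1* than in wild-type, against 7.9% of the other 5159 genes. At least 2-fold higher were 5 (1.3%), against 2.3%. At generation 1, 323 (83.5%, against 13%) were lower and 3 (0.8%, against 36.1%) higher. At generation 10, 134 (34.6%, against 16.5%) were lower and 60 (15.5%, against 0.9%) higher. Oocyte mRNA at generation 1 was 8152 to 8511 CPM in *simr-1*, against 1641 to 2000 CPM in wild-type. Its part in these counts was not tested. The rule chose the genes by high wild-type values at 20°C and generation 1 and low ones at generation 10, and these counts set *simr-1* against the same wild-type values, so the size of the difference at each point and its order over the points are fixed in part by the choice of genes and are given as a description. The median log2 level relative to wild-type at 20°C was -1.04 in *simr-1* at 20°C, -1.66 at generation 1, -1.12 at generation 2, -2.27 at generation 7 and -2.66 at generation 10, on the log2(RPM + 0.5) scale. For 267 genes *simr-1* generation 2 was above both generations 1 and 7. In *simr-1* the median declining gene had 29.8 RPM at generation 1, 46.3 at generation 2 and 17.3 at generation 7. For the other 5159 genes the medians were 83.9, 69.3 and 81.25 RPM. Oocyte mRNA was low in *simr-1* generation 2. The summed mRNA of 35 sperm genes was high there (525.6 to 743.7 CPM, against 37.5 to 176.4 CPM in the other groups). The part of these transcripts in that peak was not tested.

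The difference between genotypes was tested at generations 2 and 7. At generation 2, *simr-1* was called lower than wild-type for 241 of 387 genes (62.3%) and higher for 3, where 11.5% and 2.13% of 15594 genes were called, and the median log2 change was -1.51, against -0.05 over all genes. At generation 7 it was called lower for 195 (50.4%) and higher for 12, where 9.52% and 1.06% of 15021 genes were called, with a median of -1.31, against 0.02. Without repeated sequence, 202 and 160 of 308 genes were lower. The rule set a minimum on wild-type levels and none on mutant levels, and the background of all genes had no such minimum. The excess of lower calls in the mutant may therefore come in part from the choice of genes. The size of that part was not tested. F-box genes were often lower, at 12 of 14 at generation 2 (median -2.16) and 9 of 14 at generation 7 (-2.31), and lincRNAs were lower at 12 of 16 (-1.55) and 7 of 16 (-0.73). The pseudogene Y37H2B.1 (V:18227037-18231455) had 0.233 and 0.088 RPM in *simr-1* at generation 7, against 51.6 and 47.2 RPM in wild-type (adjusted p = 1.05e-13), a fold that rests on too few reads in *simr-1* to be given. Y32G9A.2 (V:1918539-1921029), annotated as a peptidase, had 1.24 and 0.966 RPM in *simr-1*, against 92.8 and 97.2 RPM in wild-type (-6.50, SE 0.145, adjusted p = 2.42e-15), and K03H6.5 was the third lowest. In both named genes *simr-1* was at 1.24 RPM or less and the groups did not overlap.

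A few declining genes went the other way in *simr-1*. W04A8.2 (I:13840706-13841846), a short protein coding gene, had 745.2 and 790.8 RPM in *simr-1* at generation 7, against 91.4 and 78.8 RPM in wild-type (3.08, SE 0.064, adjusted p = 1.13e-15). In *simr-1* it had 109.3 and 86.0 RPM at generation 10, against 1563 and 1530 RPM at 20°C, so its level was lower at the end there too. In the single *simr-1* library at 20°C it had 61.4 RPM, against 225.3 RPM in the single wild-type library, the opposite order. H17B01.3 (II:1484094-1485764), a pseudogene, had 42.0 and 40.6 RPM in *simr-1* at generation 7, against 9.36 and 7.48 RPM in wild-type (2.21, SE 0.138, adjusted p = 1.24e-09). ZK228.1, annotated with a reverse transcriptase domain, was the third highest (1.92).

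Over the generations *simr-1* lost small RNAs at some of these genes and gained them at others. Generation 10 was called lower than generation 1 for 90 of 385 genes tested (23.4%) and higher for 22 (5.7%), where 3.35% and 2.56% of 13626 genes were called, with a median log2 change of -0.44, against -0.01. Without repeated sequence these counts were 75 and 10 of 307. Generation 7 was called lower than generation 2 for 140 of 386 (36.3%), where 4.73% of 15810 genes were called lower and 2.13% higher. None was called higher, although 29 were higher at an unadjusted p of 0.05; DESeq2 also called 0. With generation 1 in place of generation 2, 92 were lower and 20 higher, where 2.12% and 0.719% of 15025 genes were called. Relative to *simr-1* at 20°C, 233 genes were at least 2-fold lower at generation 10 and 184 at least 3-fold lower. The same counts over the other genes are not given here. In *simr-1* the median declining gene had 36.9 RPM at 20°C and 15.5 RPM at generation 10. For the other 5159 genes the medians were 81.8 and 73.8 RPM.

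T28D6.4 (III:11360456-11366214) had 1.80 and 0.927 RPM in *simr-1* at generation 10, against 98.5 and 95.5 RPM at generation 1 (-5.98, SE 0.175, adjusted p = 1.92e-11), where wild-type at generation 10 still had 32.4 and 30.1 RPM. Y32G9A.2 (-5.40), Y73B3A.11 (-4.99) and *nfm-1*, which encodes a FERM domain protein related to merlin (-4.81), followed. The pseudogene Y73B3A.7 (X:135793-138075) rose the most, with 157.6 and 142.5 RPM at generation 10, against 7.49 and 11.8 RPM at generation 1 (3.99, SE 0.120, adjusted p = 2.39e-11). Over the same generations wild-type had 67.2 and 75.5 RPM of it at generation 10, against 225.7 and 243.3 RPM at generation 1. WBGene00022692 (3.14), WBGene00021194 (3.14) and Y48G1BM.2 (3.09) were next, of which WBGene00022692 and WBGene00021194 are near-identical copies. H17B01.3 also rose in *simr-1* (3.05), to 129.9 and 106.6 RPM at generation 10, against 16.6 and 15.2 RPM at generation 1, and in wild-type it had 0.740 and 1.84 RPM at generation 10.

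Whether the change from generation 2 to 7 differed between genotypes was tested as a difference of changes. It was positive, a smaller loss or a gain in *simr-1*, for 69 of 387 genes (17.8%) and negative for 27 (7.0%), where 3.28% and 1.38% of 17329 genes were called. The balance depended on the scaling and on single libraries: it was 32 and 62 with genome-mapped reads, 47 and 45 with library size only, and 27 and 67 without *simr-1* generation 2 replicate 1, 34 and 56 without *simr-1* generation 7 replicate 1 and 31 and 58 without wild-type generation 7 replicate 2. For *linc-22* the difference was 1.15 (SE 0.125, adjusted p = 1.58e-05), where *simr-1* had 883.9 and 898.3 RPM at generation 7, against 2041 and 2645 RPM at generation 2.

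The single libraries at 20°C gave the level of these small RNAs in mutants of small RNA factors before any shift. Of the 387 genes, 383 had at least 10 RPM in the single wild-type library, and log2 ratios of RPM + 0.5 are given against that library, with no test. In *mut-16*, 369 of 383 were at least 2-fold lower (median log2 ratio -2.67), where 29% of 7348 genes were. In *nyn-1; nyn-2*, 338 were lower (-2.75; 22.4% of genes), and in *rde-8*, 321 (-2.57; 19.7%). Over all 7348 genes, 94.8% of those lower in *rde-8* were also lower in *nyn-1; nyn-2*, of which they made up 83.6%. The share was near that among declining genes. Of the 321 declining genes lower in *rde-8*, 311 (96.9%) were among the 338 lower in *nyn-1; nyn-2*, of which they made up 92%, where 88.3% of the 383 genes were lower in *nyn-1; nyn-2* in any case. In *simr-1; hpo-40*, 184 were lower (-0.88; 15.4%), in *simr-1*, 160 (-0.81; 14.0%), and in *wago-1*, 107 (-0.36; 12%), or 177 (-0.88) with TMM scaling. In *rsd-2*, 58 were lower although the median was at 0.00 (2.3% of genes).

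Fewer declining genes were lower in the other strains. In *hpo-40*, 23 (6.0%) were lower, where 2.57% of genes were, in F37C4.5, 11 (2.9%, where 1.14% were), in Y57G11C.3, 10 (2.6%, where 1.17% were), and in *hgo-1*, 2 (0.5%, where 1.17% were). In *math-33*, 67 (17.5%) were lower, where 35.1% of genes were, and the study lists that library as not synchronized. In C33G3.6, 4 were lower (3.27% of genes) and 123 were at least 2-fold higher (4.91% of genes), with a median of 0.65, against -0.005 over all genes. The C33G3.6 library had 53.6% of its genome-mapped reads on genes, the lowest of the 14 libraries; its part in this was not tested.

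**Figure D4:**
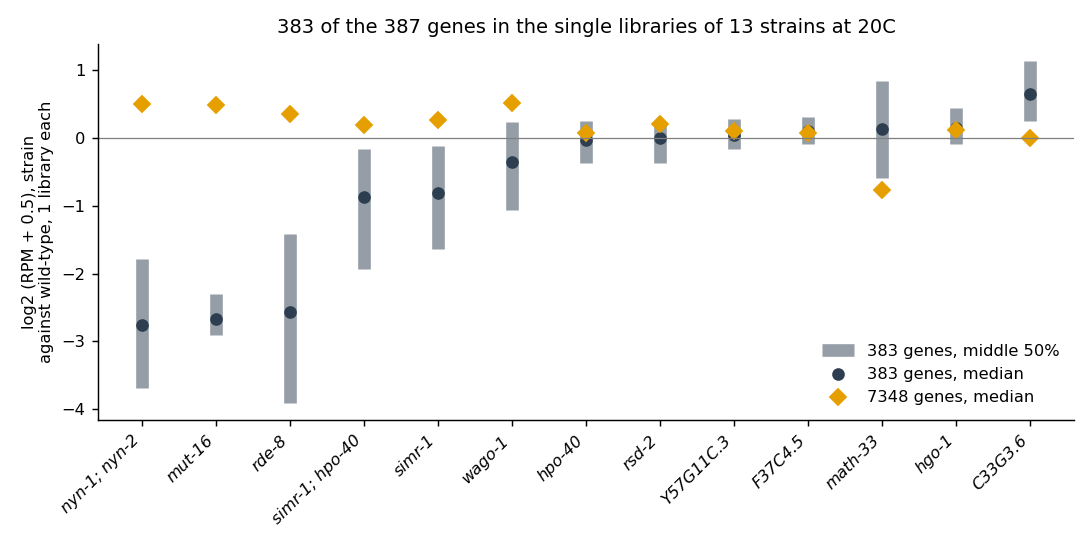
Log2 ratio of RPM + 0.5 against the single wild-type library at 20°C for 383 declining genes in 13 strains with 1 library each. Points are medians, thick bars span the middle 50% of these genes and diamonds are medians of 7348 genes; *nyn-1; nyn-2*, *mut-16* and *rde-8* lie lowest, at -2.75, -2.67 and -2.57.

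Of the 383 genes, 325 were not 2-fold lower in *rsd-2*, 7 of them lincRNAs and 62 pseudogenes. Of the 58 genes lower in *rsd-2*, 9 were lincRNAs and 13 pseudogenes. Among them 11 (19%) were also among the 160 lower in *simr-1*, of which they made up 6.9%, where 41.8% of the 383 genes were lower in *simr-1*, and 10 (17.2%) were among the 107 lower in *wago-1*, of which they made up 9.3%, where 27.9% were. Over all 7348 genes, 169 were lower in *rsd-2*, of which 42.6% were also lower in *simr-1* and 43.2% in *wago-1*. These overlaps were not tested. This group was picked after its values were seen. Its median log2 ratio was -4.65 in *rde-8*, against -2.28 for the 325 genes not lower in *rsd-2*. In *simr-1* its median was 36.2 RPM at generation 1, against 73.0 RPM at 20°C. The 325 genes had 30.35 RPM at generation 1, against 31.7 RPM at 20°C. In wild-type, 52 of the 58 and 163 of the 325 were called lower at generation 7 than at generation 2. *linc-22* was one of the 58, with a log2 ratio of -2.91 in *rsd-2*, -5.47 in *rde-8*, -5.22 in *nyn-1; nyn-2* and -2.96 in *mut-16*, against 0.14 in *simr-1*. *bath-45* showed another pattern, with -1.23 in *wago-1* and -2.83 in *mut-16*, against -0.28 in *rde-8* and 0.00 in *rsd-2*. *arrd-15* was low in *simr-1* (-4.93), *rde-8* (-4.96) and *nyn-1; nyn-2* (-6.10) and had 0.09 in *rsd-2*.

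The mRNA of the declining genes was low. Of 373 genes with a usable row, 184 averaged under 1 CPM over all libraries, 77 averaged at least 10 CPM and 37 had no read in any library, *linc-22* among them. The gene must have a certain number of reads to be tested, so each count below is of the genes tested. In wild-type, generation 1 was called higher than 20°C for 116 of 279 genes (41.6%) and lower for 39 (14.0%), where 32.6% and 8.5% of 16077 genes were called. All 8 oocyte genes were called lower in that comparison. Generation 10 was called higher than generation 1 for 78 of 289 (27%) and lower for 68 (23.5%), where 16.6% and 14.5% of 17127 genes were called, with all 8 oocyte genes higher. Generation 7 was called higher than generation 2 for 40 of 295 (13.6%) and lower for 89 (30.2%), close to the 11.9% and 27.9% of 17178 genes called; with DESeq2 the split was 44 and 61 and with library size only 34 and 104.

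Against 20°C, where oocyte mRNA was closer, other markers still differed. The summed mRNA of 3 germline genes was 990.7 to 1081 CPM at wild-type generation 10, against 1713 to 1993 CPM at 20°C. Of these, *glh-1* and *pgl-1* were lower, while *nos-2* was higher (220.9 to 232.9 CPM, against 181.2 to 201.3 CPM at 20°C). The sum of 4 cuticle genes was 221.4 to 280.4 CPM at generation 10, against 574.8 to 614.4 CPM at 20°C. Nearly all of that sum was *col-19*, while *rol-6* was higher (4.37 to 7.61 CPM, against 0 to 0.51 CPM at 20°C). The sum of 8 embryo genes was 34.2 to 40.6 CPM at generation 10, against 21.9 to 23.6 CPM at 20°C. The part of these markers in the following counts was not tested. Wild-type generation 10 was called higher for 102 of 274 declining genes (37.2%) and lower for 21 (7.7%), where 29.2% and 4.85% of 16493 genes were called, and generation 7 was called higher for 63 of 282 (22.3%) and lower for 12 (4.3%), where 10.4% and 2.46% of 16041 genes were called. Most genes that lost small RNAs were not called higher in mRNA, but for many the mRNA was too low for small changes to be detected. Of 166 genes with fewer small RNAs at wild-type generation 7 than at generation 2 and a tested mRNA, 18 had higher and 62 lower mRNA. Of 129 genes with no small RNA call, 22 had higher and 27 lower mRNA. Over all 17178 genes tested there, 11.9% were called higher and 27.9% lower. In *simr-1*, of 78 genes with fewer small RNAs at generation 10 than at generation 1, 25 had higher mRNA. Of 190 with no small RNA call, 32 did, and of 9 with more small RNAs, 7 did, where 12.2% of 15917 genes were called higher.

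*fbxb-97* (II:1846990-1848154), an F-box gene, had fewer small RNAs and more mRNA both in wild-type at generation 10 and in *simr-1* at 20°C. Its small RNAs were 142.1 and 143.4 RPM at wild-type generation 10, against 990.5 and 983.7 RPM at 20°C. Its mRNA was 29.8, 37.5 and 21.6 CPM at wild-type generation 10, against 2.21, 2.92 and 1.63 CPM at 20°C (log2 change 3.51, SE 0.194, adjusted p = 9.33e-15). In *simr-1* at 20°C the small RNAs were 189.6 and 211.0 RPM, and the mRNA was 22.4, 21.7 and 24.3 CPM, against 2.21, 2.92 and 1.63 CPM in wild-type (3.22, SE 0.14, adjusted p = 2.18e-08). The gene was therefore low in small RNAs and high in mRNA in *simr-1* at 20°C, as in wild-type at generation 10. The pseudogene M162.12 was the second gene by size of mRNA rise in *simr-1* at 20°C (2.16), with 3.68, 3.36 and 3.83 CPM in *simr-1*, against 0.710, 0.675 and 1.22 CPM in wild-type.

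At 20°C, *simr-1* was called lower than wild-type in mRNA for 17 of 250 genes (6.8%) and higher for 7 (2.8%), where 1.2% and 1.9% of 14656 genes were called. W04A8.2, whose small RNAs were 1563 and 1530 RPM in *simr-1* against 306.7 and 317.8 RPM in wild-type, had mRNA of 0.662, 0.820 and 0.792 CPM in *simr-1*, against 7.89, 10.3 and 8.14 CPM in wild-type (-3.57, SE 0.200, adjusted p = 1.93e-07). By generation 10 it had 4.08, 3.90 and 4.73 CPM in *simr-1*, against 3.58, 4.18 and 4.05 CPM in wild-type. C40A11.8, annotated as a G protein-coupled receptor, had the largest fall at 20°C, with 0.074, 0 and 0 CPM in *simr-1*, against 1.03, 0.844 and 0.136 CPM in wild-type (adjusted p = 0.00505).

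At generation 10, *simr-1* was called higher than wild-type in mRNA for 48 of 282 genes (17%), where 2.24% of 16775 genes were called higher, and lower for 18 (6.4%), where 8.98% were. The lowest were M117.7 (-2.40) and *fbxa-52* (-2.18). Markers of other tissues had, in that comparison, median log2 changes of 0.17 over 8 oocyte genes, 0.35 over 3 germline genes and 0.59 over 34 sperm genes. Of BATH and MATH genes, 4 of 6 tested were higher (median 2.16), and of 45 genes with repeated sequence 15 were higher and 4 lower. *bath-45* had mRNA of 53.0, 49.2 and 45.3 CPM in *simr-1* at generation 10, against 1.22, 1.16 and 0.982 CPM in wild-type (5.44, SE 0.126, adjusted p = 3.72e-15). In *simr-1* it had 0.441, 0.574 and 0.330 CPM at 20°C, 0.732, 0.403 and 0.705 CPM at generation 1 and 13.7, 12.7 and 15.2 CPM at generation 7, while its small RNAs were 2931 and 2830 RPM at 20°C, 911.0 and 931.7 RPM at generation 7, then 200.4 and 208.5 RPM at generation 10. Its wild-type mRNA stayed at 0.982 to 3.51 CPM in all groups although its small RNAs were 1265 and 1269 RPM at generation 10.

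Y102A5C.4 (V:16922252-16924258), an EGF-like domain gene, had mRNA of 12.2, 11.8 and 10.8 CPM in *simr-1* at generation 10, against 0.364, 0.252 and 0.123 CPM in wild-type (5.50, SE 0.237, adjusted p = 1.24e-11). Its small RNAs had risen in *simr-1*, with 139.3 and 133.2 RPM at generation 10, against 46.1 and 45.4 RPM at generation 1 (1.72, SE 0.067, adjusted p = 2.93e-10). The contrasts differ, as the mRNA was set against wild-type and the small RNAs against generation 1 of *simr-1*. F07B7.1, with its perfect copy, had 3.08, 5.33 and 3.05 CPM in *simr-1* at generation 10, against 0.061, 0 and 0.123 CPM in wild-type (adjusted p = 8.19e-08), and reads of the copies cannot be told apart.

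Within *simr-1*, generation 10 was called higher than generation 1 in mRNA for 65 of 278 genes (23.4%) and lower for 2 (0.7%), where 12.2% and 1.57% of 15917 genes were called, in a comparison where 26 of 34 sperm genes were also higher. *bath-45* rose by the most among genes detected in both groups (6.21, SE 0.149, adjusted p = 7.93e-15). *math-1*, another MATH domain gene, had 1.09, 2.00 and 0.916 CPM at generation 10 and no read in the 3 libraries of generation 1. The genes called lower were Y43F8B.9 (-1.50), with 0.998, 1.33 and 1.14 CPM at generation 10 against 3.32, 2.50 and 3.63 CPM at generation 1, and ZK856.5 (-1.26), with 11.2, 9.14 and 8.17 CPM against 22.7, 23.3 and 20.6 CPM.

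In wild-type some large mRNA changes were seen at the first generation after the shift. Y53F4B.45 had 9.65, 7.64 and 10.3 CPM at generation 1, against 0, 0.112 and 0 CPM at 20°C, and T16G12.10 had 0.839, 0.764 and 0.478 CPM at generation 1 and no read at 20°C. Y73B6BL.288 fell by 4.10 (SE 0.248, adjusted p = 3.30e-10), with 0.682, 0.191 and 0.717 CPM at generation 1, against 8.60, 10.9 and 10.7 CPM at 20°C, and *lips-12*, a lipase-related gene, fell by 5.03. At generation 7, Y73B6BL.288 was higher than at generation 2 (2.86), as was Y105C5A.2 (2.76), and *math-48* and F07B7.8 were lower. At generation 10, F46C3.7 and C02B8.2 were higher than at generation 1, and C03A7.2 and C40A11.8 lower. *nfm-1* shows the size of the early rise: 117.3, 104.6 and 112.5 CPM at generation 1, against 13.8, 14.7 and 16.3 CPM at 20°C, with 28.7, 24.4 and 25.0 CPM at generation 10.

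**Figure D5:**
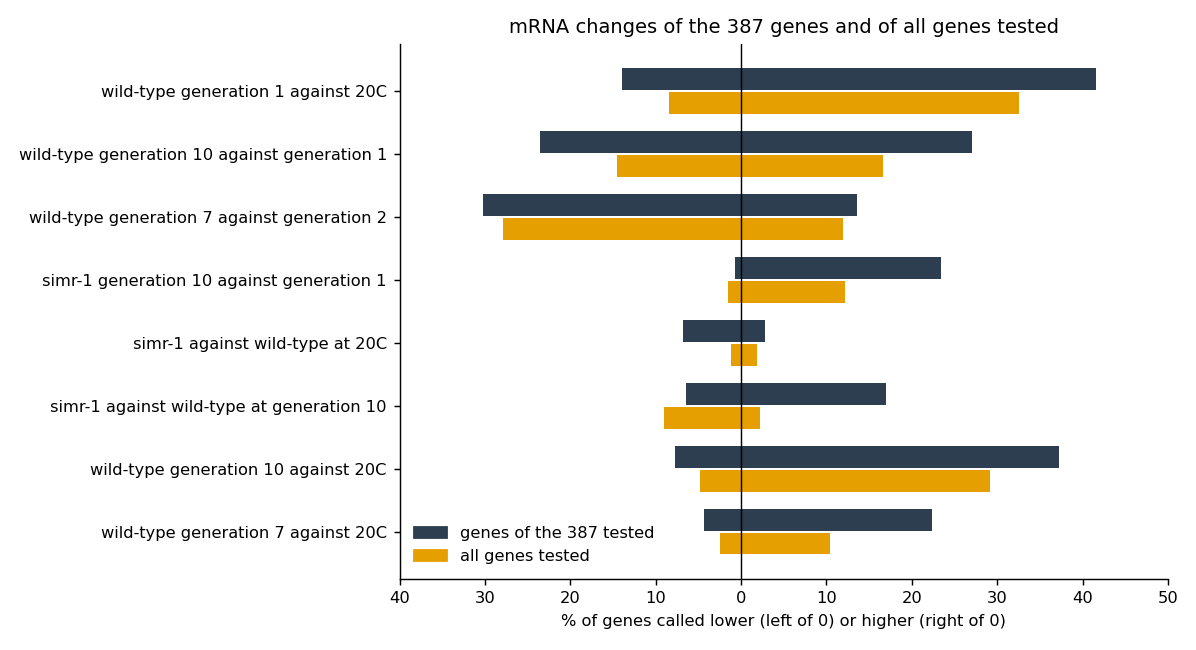
Percent of tested declining genes (dark) and of all tested genes (orange) called higher (right of 0) or lower (left of 0) in mRNA in each comparison. In *simr-1* against wild-type at generation 10, 17% of declining genes were higher, against 2.24% of all genes.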

How the data were processed

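The authors deposited expected counts per gene for each library. For small RNAs, per the file headers, the authors counted Bowtie2 alignments to the WS258 genome with featureCounts of the Subread package, with fractional counting, largest overlap and no strand, on genes without miRNAs and piRNAs, so a read with several matches counted at 1 of them. For mRNA the authors deposited estimated counts per sequence name; HISAT2 and Salmon are named in their methods, and which gave the table is not stated. RPM are counts per 1000000 of the file's own total, and CPM of mRNA are per 1000000 of the total times the library's TMM factor over all mRNA libraries. For each comparison the rounded counts of the compared groups were fitted with edgeR 4.0.16 (R 4.3.3; TMM, quasi-likelihood test) over all genes whose counts summed to 10 or more. Calls needed a 2-fold change and an adjusted p (Benjamini-Hochberg) no higher than 0.05, and small RNA calls also 10 RPM or more in a compared group. Alternatives were DESeq2 1.42.0 and its size factors, library size only, genome-mapped reads (totals from the study's list of libraries), other filters, a replicate block, leaving out each library, and settings added after seeing the data. Scripts were tested on simulated data. Figures and summaries used Python 3.11.15. The 387 genes and the gene lists were chosen with earlier results of these data known. Genes named were the most abundant, those with the largest changes called in each comparison, the genes next to the limit of the rule, and, chosen after their values were seen, those discussed for both small RNA and mRNA. Same-numbered mRNA libraries of *simr-1* and wild-type at generation 10 deviated together (correlations 0.208, 0.106 and 0.326), and a block there called 47 genes higher and 20 lower, against 48 and 18 without it. Other groups' numbers did not all do so.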

Additional observations from a re-analysis of the deposited data

Results flagged for a closer look

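The change in small RNAs between generations 2 and 7 differed between *simr-1* and wild-type in a test of the difference itself (edgeR, simr-1 change minus wild-type change) for 69 declining genes that were higher and 27 that were lower, a balance that turned with the scaling and with single libraries. The largest positive differences were at *ser-3*, an octopamine receptor gene, and C40A11.7. *ser-3* had 0.853 and 1.76 RPM in *simr-1* and 4.68 and 3.82 RPM in wild-type at generation 7, and 1.86 and 0.793 RPM in *simr-1* and 28.4 and 28.1 RPM in wild-type at generation 2, a difference of 2.91 (SE 0.531, adjusted p = 0.00156). C40A11.7 had 2.71 and 2.90 RPM in *simr-1* and 3.51 and 3.06 RPM in wild-type at generation 7, and 3.23 and 2.78 RPM in *simr-1* and 16.9 and 25.0 RPM in wild-type at generation 2, a difference of 2.84 (SE 0.401, adjusted p = 0.000204). Both genes were already near the floor in *simr-1* at generation 2. The largest negative differences were at Y32G9A.2 (-2.68, SE 0.234, adjusted p = 1.9e-06) and C34C12.7 (-1.98, SE 0.261, adjusted p = 0.000113). C34C12.7 had 1.40 and 1.67 RPM in *simr-1* and 86.0 and 90.6 RPM in wild-type at generation 7, and 9.81 and 13.9 RPM in *simr-1* and 148.6 and 143.6 RPM in wild-type at generation 2. These 4 genes were chosen after their values were seen.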

How the results depend on the processing

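No value of a named gene reversed under any alternative run, but the balance of the difference between genotypes, 69 higher and 27 lower, turned under some of them. The number of declining genes was 188 with genome-mapped reads and 586 with a limit of 2-fold. With genome-mapped reads the wild-type generation 7 against 2 comparison had 102 lower, the *simr-1* one 5 higher, *simr-1* against wild-type at generation 2 had 6 higher, and the difference between genotypes had 62 lower and 32 higher; library size only gave 45 lower there. Leaving out each library moved that difference over 18 to 67 lower and 27 to 90 higher. Settings chosen after seeing the data: without repeated sequence, 10 were higher in *simr-1* generation 10 against 1 and 5 in *simr-1* against wild-type at generation 7; generation 1 in place of 2 gave 92 lower and 20 higher in *simr-1*; and mRNA against 20°C gave 21 lower for generation 10, and 12 lower and 63 higher for generation 7. In single libraries, TMM scaling gave 177 lower in *wago-1*, 10 in C33G3.6 and 5 in *hgo-1*, genome-mapped reads 15 in C33G3.6, and a minimum of 20 RPM 1 in *hgo-1*. The cause was not tested. The replicate block moved no count by over 1.5 times: 218 against 219 lower in wild-type generation 7 against 2. Small RNA groups had 2 pairs, which cannot show pairing. The largest correlation of same-numbered small RNA libraries was 0.4, for *simr-1* and wild-type at generation 2. A block there called 241 lower and 3 higher, the same as without it. Of 3865 values of named genes recomputed, 3800 kept their side of the threshold and 65 lost it. Of 373 declining genes, 184 average under 1 CPM in mRNA, so small mRNA changes could not be detected at this depth.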
